A study of Mus musculus with 6 samples.

Results

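Transcripts of terminal erythroid maturation factors were measured in fetal liver (FL) at E14.5, with and without the zinc-finger protein POGZ. Several of these genes serve erythroblasts to condense and expel the nucleus or to clear mitochondria, ribosomes and surplus proteins. Trim10, Tspan33 and Hemgn are included as maturation factors, and no role in those steps is claimed for them here. The members are Xpo7, Trim58, Bnip3l, Ube2o, Riok3, Trim10, Fbxo7, Tspan33 and Hemgn, and each probe set was taken that the array annotation assigns to exactly 1 gene, that gene being a member. This gave 20 of the 45037 probe sets and 7 of the 18193 genes. Xpo7 had 8 probe sets, Riok3 and Tspan33 had 4 each, and Ube2o, Trim10, Fbxo7 and Hemgn had 1 each. The 3 probe sets of Bnip3l are also assigned to its pseudogene and were left out, and no probe set names Trim58 in the annotation used here, so these members have no value. All other members passed, because no filter on dim signal was applied.

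Livers came from 3 Pogz+/+ embryos (Pogz-WT) and 3 Pogz-/- embryos (Pogz-KO) on a congenic C57BL/6 background (C57BL/6J in the study's text) backcrossed for more than 10 generations. Exons 13 to 19 of Pogz were flanked by loxP sites and removed by a Cre recombinase under the β-actin promoter, so that the whole embryo lacks them and the FL cells share that loss with the rest of the body. The livers were minced and strained into suspensions of all FL cells, with no sorting, and RNA of each was hybridized to 1 Affymetrix Mouse Genome 430 2.0 array. Values are log2 of the probe set intensity, and levels of different probe sets are not comparable with each other.

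Mammalian erythroblasts condense their chromatin, leave the cell cycle and push out the nucleus in a thin rim of cytoplasm, a step that relies on nuclear export, histone changes and a contractile actin ring. The resulting reticulocyte then loses its mitochondria by mitophagy and its ribosomes and many other proteins through ubiquitin and the proteasome. At E14.5 the FL is the main site of definitive erythropoiesis, and most of its cells are erythroid.

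The stretches of 250 bases upstream of the start are given for 4 members, since they let a reader set genes that fell (Tspan33, Fbxo7) beside genes that did not pass the test (Hemgn, Trim10). They are RefSeq sequence of GRCm38.p6, written 5′ to 3′ on the strand of the gene, at chr6:29693964-29694213 (plus strand) for Tspan33, chr10:86021679-86021928 (plus strand) for Fbxo7, chr4:46404184-46404433 (minus strand) for Hemgn and chr17:36869324-36869573 (plus strand) for Trim10. For Fbxo7 the first of its starts in that table was used. No such stretch was at hand for Xpo7 or Ube2o, which also fell, so these 4 do not stand for all members. Capitals mark, on either strand, GATA between an A or T before it and an A or G after it, which is the form that GATA factors recognise, and CCAAT, the letters of the CCAAT box.
Tspan33: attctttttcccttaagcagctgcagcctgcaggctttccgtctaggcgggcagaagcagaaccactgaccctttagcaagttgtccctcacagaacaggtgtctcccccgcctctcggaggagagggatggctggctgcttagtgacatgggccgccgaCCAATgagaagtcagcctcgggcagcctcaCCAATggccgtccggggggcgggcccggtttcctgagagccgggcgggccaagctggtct
Fbxo7: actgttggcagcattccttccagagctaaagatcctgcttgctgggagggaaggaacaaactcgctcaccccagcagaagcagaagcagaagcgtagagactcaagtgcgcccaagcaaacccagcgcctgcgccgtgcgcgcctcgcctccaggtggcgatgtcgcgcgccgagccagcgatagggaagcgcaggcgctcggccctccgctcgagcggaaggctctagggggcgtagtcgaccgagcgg
Hemgn: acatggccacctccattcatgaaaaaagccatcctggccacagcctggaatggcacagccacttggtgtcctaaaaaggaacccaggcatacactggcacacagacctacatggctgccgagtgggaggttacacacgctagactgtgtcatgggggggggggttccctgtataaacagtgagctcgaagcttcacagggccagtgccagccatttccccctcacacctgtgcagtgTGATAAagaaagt
Trim10: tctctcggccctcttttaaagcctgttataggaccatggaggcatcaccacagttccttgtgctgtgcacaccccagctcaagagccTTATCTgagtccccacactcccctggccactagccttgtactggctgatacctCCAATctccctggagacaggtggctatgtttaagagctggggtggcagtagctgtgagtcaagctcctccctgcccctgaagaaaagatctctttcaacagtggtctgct

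The Tspan33 stretch held 2 CCAAT boxes, the nearer at 60 to 56 bases before the start, and no GATA letters. The Hemgn stretch held TGATAA at 13 to 8 bases before the start, and the Trim10 stretch held AGATAA on its other strand at 163 to 158 bases and CCAAT at 110 to 106 bases before the start. The Fbxo7 stretch held none of these letters. Of 32851 mouse promoters of the same length, 26.5% held any of the GATA letters and 33.8% held CCAAT, so these matches are common and are given as description only. The G and C content was 62.4% for Tspan33 and 64.8% for Fbxo7, above the middle range of all promoters (45.2% to 61.2%, median 52.4%), and 54.4% for Hemgn and 53.6% for Trim10, within it.

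Of the 7 members measured, Xpo7, Tspan33, Ube2o and Fbxo7 fell in Pogz-/- FL when Pogz+/+ replicate 1 was left out, and none rose. These 4 genes had 7 of the 20 member probe sets between them that passed the test (adjusted p under 0.05, limma with trend and robust), where 1.22% of all probe sets fell and 1.45% rose. With all 6 arrays none passed, nor did any other probe set on the array (0% called by limma's plain fit). Over the 6 arrays, 8 member probe sets were lower and 0 higher at an unadjusted p under 0.05 (limma; 8.73% of all probe sets were lower at that level). The 3 Pogz-/- arrays all lay below the 3 Pogz+/+ arrays in 14 of the 20 probe sets and all above in 0, where 15.8% of all probe sets lay below in that way. Member probe sets are mostly bright: 12 were in the top 10% by mean signal, and 6 of these fell, against 8.93% of all probe sets in that range. Probe sets of 1 gene share their RNA and are not independent counts. By the brightest probe set of each gene, 4 of the 7 members fell, against 2.07% of 18193 genes that fell and 2.41% that rose.

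Each count depends on the scale of the arrays. The deposited values were scaled to a common trimmed mean, and the median log2 fold change of all probe sets without replicate 1 was then -0.13. After each array was centred on its median instead, that value was 0.15, and 145 probe sets were lower and 2767 higher where the deposited scale gave 548 and 654. On the centred scale 3 member probe sets still passed, 2 of Xpo7 and 1 of Tspan33, and 0 passed on the other side. The test matters as well: limma's plain fit on these 5 arrays and the methods' t-test called 0 member probe sets, where the plain fit gave 10 of the 20 an unadjusted p under 0.05 (11% of all probe sets) and the methods' t-test 9 (12.6%).

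**Figure D1:**
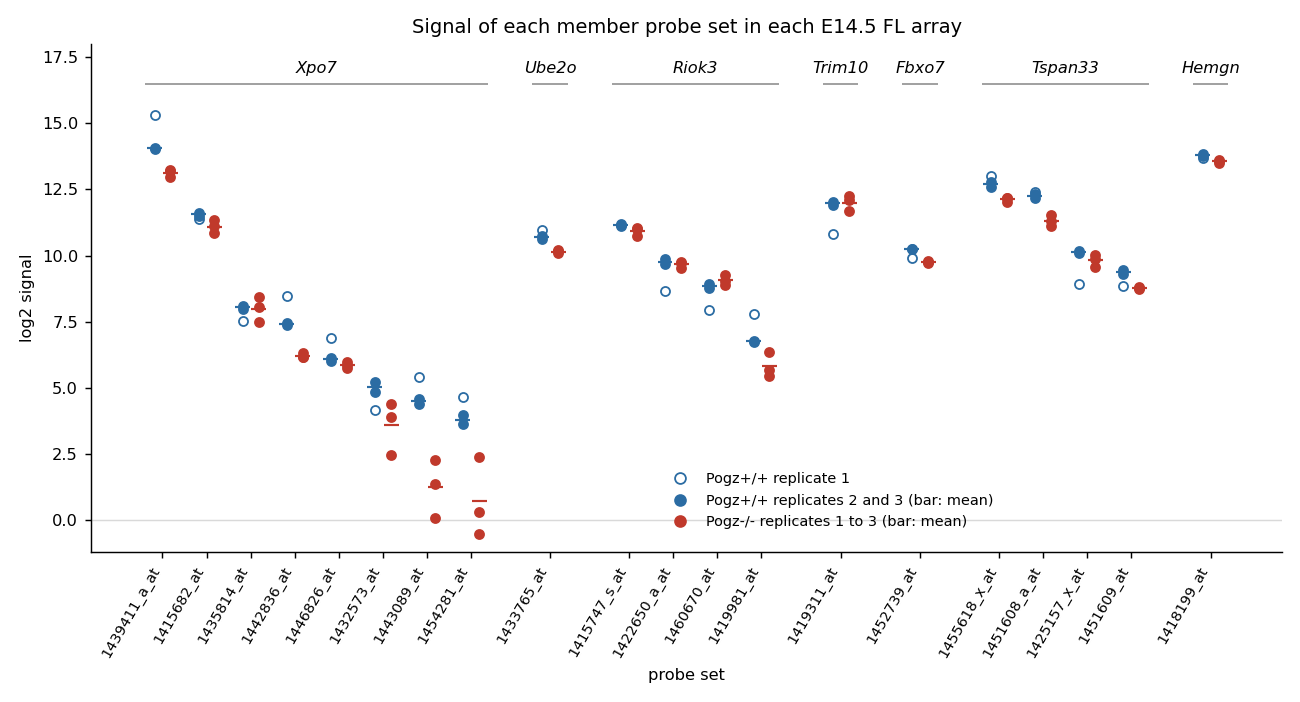
Log2 signal (vertical axis) of the 20 member probe sets (horizontal axis, grouped by gene) in each array. Open blue circles are Pogz+/+ replicate 1, filled blue circles Pogz+/+ replicates 2 and 3, filled red circles the 3 Pogz-/- replicates, and bars are means without replicate 1. In 14 of the 20 probe sets all red circles lie below all blue ones, and replicate 1 often lies apart from the other blue circles.

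Pogz+/+ replicate 1 stood apart, and the ratio of 3′ to 5′ signal of the Actb and Gapdh controls moved with genotype. On these arrays, control probe sets against the 3′ and the 5′ end of Actb give a ratio that grows as RNA or labelled target gets shorter. For Pogz+/+ replicates 1 to 3 this ratio was 52.3, 5.50 and 6.63, and for Pogz-/- it lay between 3.72 and 4.09. The Gapdh ratio was 15.3, 7.37 and 9.29 against 4.87 to 5.08. Every Pogz+/+ array was above every Pogz-/- array for both (exact permutation test, two-sided p = 0.1, the smallest that 3 against 3 can give), so the ratio and the genotype cannot be told apart here. Replicate 1 correlated with the other arrays at 0.794 to 0.810 across probe sets, and the other pairs at 0.884 to 0.906. Leaving it out keeps 2 Pogz+/+ arrays, which limits how well their spread is known. The brightest of 4 Pogz probe sets was 9.17, 9.03 and 8.95 in Pogz+/+ and 9.16, 9.22 and 9.33 in Pogz-/-. Whether it lies inside the deleted exons could not be read from the files, so it is no check of the genotype.

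Xpo7, which encodes exportin 7, a nuclear export receptor that erythroblasts need to condense and expel the nucleus, fell in Pogz-/- FL by 2 of its 8 probe sets. The brightest, 1439411_a_at, read 15.30, 14.06 and 14.04 in Pogz+/+ replicates 1 to 3 and 12.99, 13.25 and 13.18 in Pogz-/-. The groups did not overlap, and replicate 1 was 1.25 above the mean of the other Pogz+/+ arrays. Without it the log2 signal fell by 0.91 (SE 0.08, limma with trend and robust, adjusted p = 0.000657), which is 1.88-fold, and over 6 arrays the log2 fold change was -1.33 (SE 0.42, adjusted p = 0.389). This call was kept under 10 of 12 other ways of processing, the most of any member probe set, and with any further array left out (adjusted p from 0.000649 to 0.0411).

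The other Xpo7 probe set that fell, 1442836_at, read 8.47, 7.37 and 7.46 in Pogz+/+ and 6.33, 6.18 and 6.15 in Pogz-/-. Again no array of 1 genotype reached into the range of the other, and replicate 1 was the highest by 1.06. It fell by 1.19 without replicate 1 (SE 0.21, adjusted p = 0.0142, limma with trend and robust), or 2.29-fold, and had a log2 fold change of -1.55 over 6 arrays (SE 0.37, adjusted p = 0.375). The adjusted p was 0.101 and 0.14 without Pogz+/+ replicate 2 or 3 and 0.0563 and 0.074 without Pogz-/- replicate 2 or 3.

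The remaining 6 Xpo7 probe sets did not pass and did not give 1 common value. The second brightest, 1415682_at, read 11.37, 11.63 and 11.51 in Pogz+/+ and 10.86, 11.33 and 11.11 in Pogz-/-. The groups were apart by little, and its log2 fold change was -0.47 without replicate 1 (SE 0.12, adjusted p = 0.0780) and -0.40 over 6 arrays. By contrast 1435814_at, at 7.51, 7.99 and 8.09 in Pogz+/+ and 7.47, 8.44 and 8.05 in Pogz-/-, overlapped fully, with log2 fold changes of -0.05 without replicate 1 (SE 0.24, adjusted p = 0.944) and 0.12 over 6 arrays. The probe set 1446826_at read 6.87, 6.03 and 6.14 against 5.99, 5.74 and 5.86, with a log2 fold change of -0.22 without replicate 1 (adjusted p = 0.750).

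Of the Xpo7 probe sets, 3 were dim, under the median signal of all probe sets. The signal of 1443089_at was 5.42, 4.57 and 4.41 in Pogz+/+ and 0.10, 1.37 and 2.29 in Pogz-/-. For 1454281_at it was 4.66, 3.62 and 3.99 in Pogz+/+ and -0.51, 2.40 and 0.31 in Pogz-/-. In both, all Pogz-/- arrays were below all Pogz+/+ arrays but differed widely among themselves. Their log2 fold changes without replicate 1 were -3.24 (SE 1.09, adjusted p = 0.169) and -3.07 (SE 1.14, adjusted p = 0.216), and over 6 arrays they were the member probe sets with the smallest and the second smallest unadjusted p (0.00163 and 0.00634, limma; adjusted p = 0.314 and 0.374). The third, 1432573_at, at 4.17, 5.22 and 4.85 against 2.47, 3.92 and 4.39, overlapped between genotypes only through replicate 1. Without that array its log2 fold change was -1.44 (SE 0.76, adjusted p = 0.396, limma with trend and robust). The files hold no detection calls, so whether such low readings are above background is not known, and the size of these differences is uncertain. Across the 8 probe sets the log2 fold change spanned 3.18 without replicate 1 and 3.67 over 6 arrays, all 8 being below 0 in the former and 7 in the latter.

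Riok3, an atypical kinase of the RIO family that has been tied to chromatin condensation and enucleation of FL erythroblasts, did not pass by any of its 4 probe sets, and these pointed both ways. The brightest, 1415747_s_at, whose suffix marks probes shared with other transcripts, read 11.20, 11.12 and 11.17 in Pogz+/+ and 10.74, 10.99 and 11.03 in Pogz-/-. All Pogz-/- arrays were lower, by a log2 fold change of -0.22 without replicate 1 (SE 0.11, adjusted p = 0.345, limma with trend and robust). The dimmest, 1419981_at, read 7.79, 6.75 and 6.77 against 6.34, 5.68 and 5.46, also without overlap, with -0.93 (SE 0.30, adjusted p = 0.157).

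In the other Riok3 probe sets the genotypes overlapped and Pogz+/+ replicate 1 was the lowest array. For 1422650_a_at the values were 8.66, 9.87 and 9.68 in Pogz+/+ and 9.76, 9.74 and 9.54 in Pogz-/-. For 1460670_at they were 7.93, 8.76 and 8.92 in Pogz+/+ and 8.87, 9.26 and 9.06 in Pogz-/-, and only this probe set and that of Trim10 among the 20 had a log2 fold change above 0 without replicate 1 (0.22 here, SE 0.14, adjusted p = 0.490).

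Ube2o, a large enzyme that both carries ubiquitin and selects its targets, and with which reticulocytes mark ribosomal and other proteins for removal, fell in Pogz-/- FL. Its probe set, 1433765_at, read 10.95, 10.75 and 10.62 in Pogz+/+ and 10.16, 10.20 and 10.09 in Pogz-/-. The groups were well apart and each was narrow. It fell by 0.54 without replicate 1 (SE 0.10, adjusted p = 0.0173, limma with trend and robust), or 1.45-fold, and had a log2 fold change of -0.62 over 6 arrays (SE 0.23, adjusted p = 0.413).

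Fbxo7, the F-box subunit through which an SCF ubiquitin ligase finds its substrates and which also takes part in mitophagy, fell as well. Its signal at 1452739_at was 9.90, 10.27 and 10.24 in Pogz+/+ and 9.78, 9.74 and 9.75 in Pogz-/-. Here replicate 1 was the lowest Pogz+/+ array, 0.35 under the mean of the others, and still above every Pogz-/- array. The log2 signal fell by 0.50 without replicate 1 (SE 0.10, adjusted p = 0.0243), or 1.41-fold, and the log2 fold change over 6 arrays was -0.38 (SE 0.24, adjusted p = 0.516). The calls of Ube2o and Fbxo7 were both lost after median centring (adjusted p = 0.195 and 0.313), and also without Pogz+/+ replicate 2 or 3 (0.111 to 0.178) or Pogz-/- replicate 2 or 3 (0.0529 to 0.11).

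Trim10, a RING-finger protein of erythroid cells that terminal differentiation in culture depends on, did not pass. Its signal at 1419311_at was 10.80, 12.04 and 11.92 in Pogz+/+ and 11.68, 12.24 and 12.09 in Pogz-/-. Apart from replicate 1, which was 1.18 under the other Pogz+/+ arrays, the values were close in both genotypes. Its log2 fold change was 0.02 without replicate 1 (SE 0.14, adjusted p = 0.957) and 0.42 over 6 arrays (SE 0.42, adjusted p = 0.670). Trim58, the ubiquitin ligase that removes dynein from the enucleating cell, and Bnip3l, the mitochondrial receptor of reticulocyte mitophagy, could not be set beside these because they have no probe set of their own here.

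Tspan33, a tetraspanin of the erythroblast surface, fell in Pogz-/- FL by 3 of its 4 probe sets. The largest fall was at 1451608_a_at, with 12.41, 12.18 and 12.35 in Pogz+/+ and 11.13, 11.53 and 11.30 in Pogz-/-. It fell by 0.94 without replicate 1 (SE 0.11, adjusted p = 0.00242, limma with trend and robust), or 1.92-fold, and its log2 fold change over 6 arrays was close to that (-0.99, SE 0.24, adjusted p = 0.378). Replicate 1 was only 0.14 above the other Pogz+/+ arrays in it, so this fall hardly changed with that array. Its call was lost without Pogz+/+ replicate 3 (adjusted p = 0.0826).

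The brightest Tspan33 probe set, 1455618_x_at, read 13.01, 12.61 and 12.80 in Pogz+/+ and 12.17, 12.18 and 12.03 in Pogz-/-, and fell by 0.57 (SE 0.09, adjusted p = 0.00690). For 1451609_at the signal was 8.83, 9.45 and 9.29 against 8.80, 8.79 and 8.75, a fall of 0.59 (SE 0.12, adjusted p = 0.0270), although replicate 1 lay only just above the Pogz-/- arrays. The last, 1425157_x_at, at 8.92, 10.09 and 10.17 against 9.86, 10.01 and 9.58, overlapped because replicate 1 was the lowest of all 6. It had a log2 fold change of -0.31 without replicate 1 (adjusted p = 0.288) and 0.09 with it. The suffix of this and of the brightest probe set marks probes that may bind other transcripts too. Median centring ended the calls of 1455618_x_at and 1451609_at (adjusted p = 0.101 and 0.192). They were lost too without Pogz+/+ replicate 2 or 3 (0.054 to 0.216) or Pogz-/- replicate 3 (0.0533 and 0.12), and that of 1451609_at without Pogz-/- replicate 2 (0.0903).

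Hemgn, hemogen, a nuclear protein of hematopoietic cells, was bright and changed little. Its signal at 1418199_at was 13.71, 13.85 and 13.77 in Pogz+/+ and 13.57, 13.61 and 13.51 in Pogz-/-. All Pogz-/- arrays were below all Pogz+/+ arrays, by a log2 fold change of -0.25 without replicate 1 (SE 0.06, adjusted p = 0.0717) and -0.21 over 6 arrays (SE 0.22, adjusted p = 0.679), neither of which passed.

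**Figure D2:**
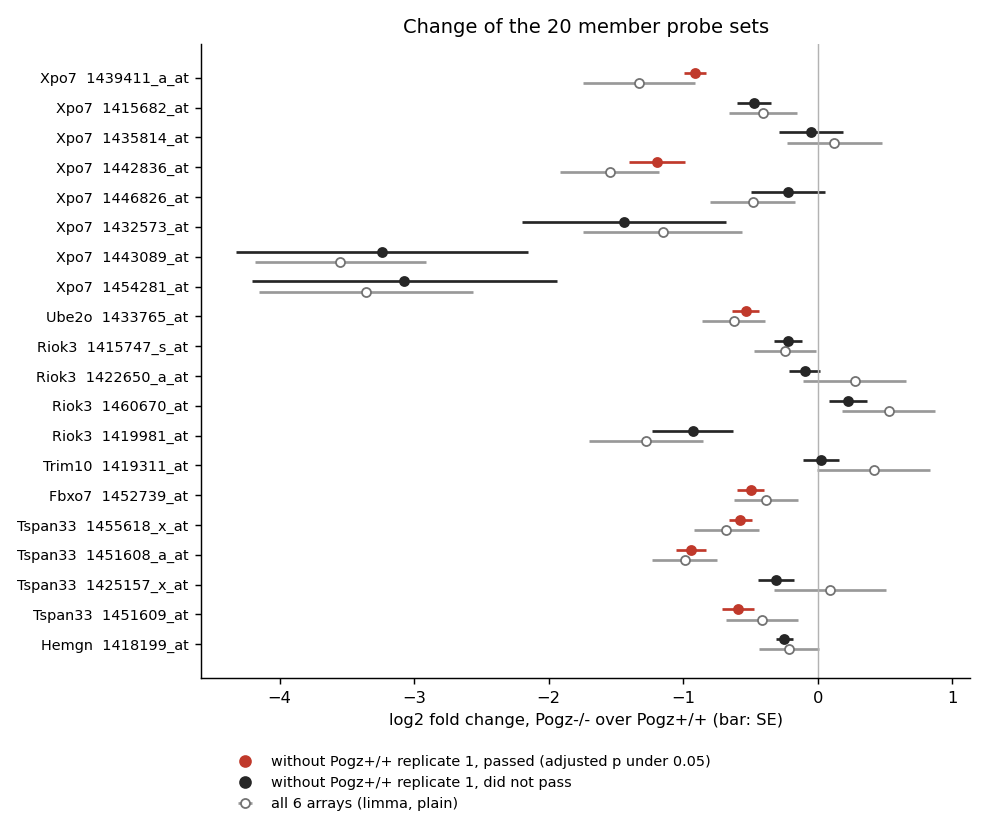
Log2 fold change of Pogz-/- over Pogz+/+ (horizontal axis) for each member probe set (rows), with bars of 1 SE. Filled circles are without Pogz+/+ replicate 1 (red where the adjusted p was under 0.05) and open circles are over all 6 arrays; 18 of the 20 filled circles lie below 0, and no open circle passed.

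By the brightest probe set of each gene, the median log2 fold change of the 7 members was -0.50 without replicate 1 and -0.38 over 6 arrays, where the medians of all genes were -0.10 and -0.17. The mean of the 7 over arrays, as log2 signal, was 12.13, 12.10 and 12.08 in Pogz+/+ and 11.58, 11.74 and 11.67 in Pogz-/-. The near-equal Pogz+/+ means hide opposite readings in replicate 1. There Xpo7 read 15.30, against 14.06 and 14.04 in replicates 2 and 3, and Trim10 read 10.80, against 12.04 and 11.92. In RNA of a whole organ, fewer cells that hold a transcript and less of it in each cell cannot be told apart.

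How a member probe set sat in replicate 1 moved with its difference between genotypes. In the 10 probe sets where replicate 1 was above the mean of the other Pogz+/+ arrays, the median log2 fold change without it was -0.92 and 5 fell. In the 10 where replicate 1 was below, the median was -0.28 and 2 fell, those of Fbxo7 and 1 of Tspan33. Among all probe sets, 1.63% of those higher in replicate 1 and 0.594% of those lower in it fell. To keep the arrays on both sides apart, replicate 1 minus replicate 2 was set against the Pogz-/- mean minus replicate 3. Over the 20 probe sets Pearson's r was -0.565 and Spearman's rho -0.633, and with replicates 2 and 3 exchanged they were -0.533 and -0.603. These are descriptions over probe sets that share arrays, transcripts and probe positions. Over all probe sets the same r was -0.0955 and, exchanged, -0.0912. The part of the 3′ to 5′ ratio in the members' falls was not tested.

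**Figure D3:**
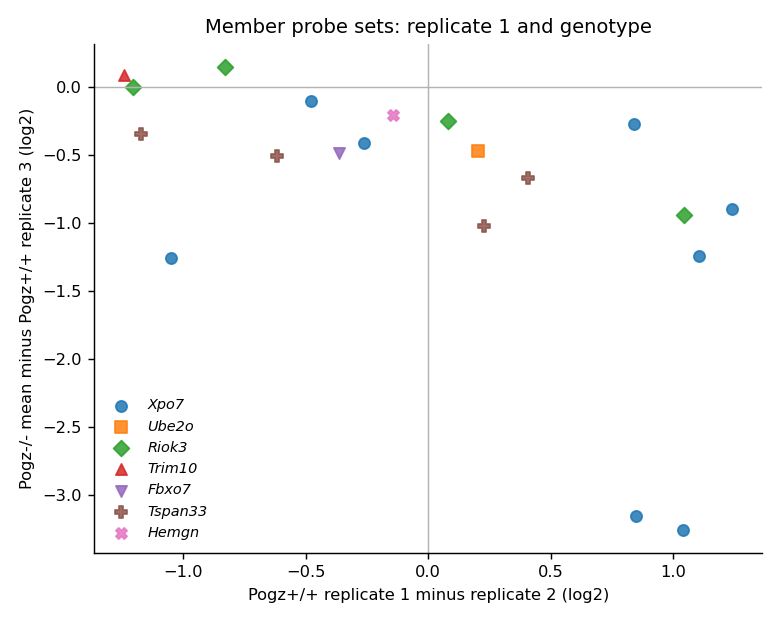
Each symbol is a member probe set, by gene. The horizontal axis is Pogz+/+ replicate 1 minus replicate 2 and the vertical axis the mean of Pogz-/- minus Pogz+/+ replicate 3, both in log2 units. Probe sets further right lie lower (Pearson's r = -0.565 over 20 probe sets), and the lowest symbols are dim Xpo7 probe sets.

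Other genes of enucleation and of organelle and protein clearance were read from lists, each by its brightest probe set, and only some of them moved. Of 23 measured genes of nuclear condensation and enucleation, 4 fell without replicate 1 and 0 rose, with a median log2 fold change of -0.05. Over all genes 2.07% fell and 2.41% rose, and the median was -0.10. Cit, the citron kinase of the cleavage furrow, fell by 1.22 (SE 0.18, adjusted p = 0.00442, limma with trend and robust), and Diaph3, a formin that builds actin filaments, by 0.79 (SE 0.11, adjusted p = 0.00307). The transcription factors Nfe2 and Klf1, which drive late erythroid genes, fell by 0.66 (adjusted p = 0.0120) and 0.39 (adjusted p = 0.0177). Klf1 did not pass after quantile normalization, and neither passed after median centring. The study reported no significant difference in Klf1 by real-time PCR of Pogz-/- FL at a later embryonic day.

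Of 22 genes of mitophagy and autophagy, 1 fell and 0 rose, with a median of -0.03. It was Map1lc3b, an LC3 protein of the autophagosome membrane, by 0.41 (SE 0.09, adjusted p = 0.0276). Nbr1, an autophagy receptor for ubiquitin-marked cargo, had a log2 fold change of 0.39 and Ulk1, the kinase that starts autophagy, of -0.44, and neither passed (adjusted p = 0.0504 and 0.0754). Bnip3, named here as the closest relative of Bnip3l, had 1.06 (adjusted p = 0.154).

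Of 24 measured genes listed for the ubiquitin system of late erythroid cells, not all of them enzymes, 4 fell and 1 rose. Their median was -0.03. Rnf123 fell by 0.83 (SE 0.11, adjusted p = 0.00245), Rnf11 by 0.71, Marchf2 by 0.55 and Ubac1 by 0.30, while Rnf19b, a RING ligase, rose by 0.87 (SE 0.19, adjusted p = 0.0260). Over 6 arrays 0 genes passed in each of these 3 lists (limma's plain fit), and the medians were -0.01, 0.08 and 0.03. The scale of the arrays changed these lists: after quantile normalization 3, 1 and 2 genes fell in them, with Ulk1 in place of Map1lc3b. After median centring, 2, 0 and 2 fell and 4, 1 (Nbr1) and 4 rose, and the medians were 0.22, 0.25 and 0.25. Diaph3, Cit, Rnf123 and Rnf11 fell and Rnf19b rose on all 3 scales.

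**Figure D4:**
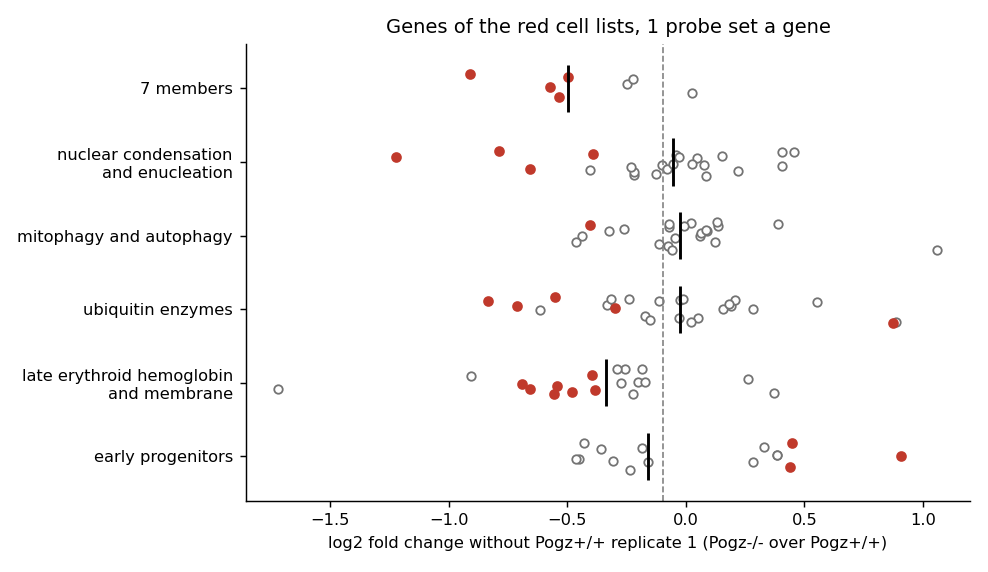
Log2 fold change without Pogz+/+ replicate 1 (horizontal axis) of each gene in 6 groups (rows), by its brightest probe set. Red circles passed (adjusted p under 0.05), open circles did not, vertical bars are group medians and the dashed line is the median of all genes (-0.10). The medians are -0.50 for the 7 members and -0.34 for late erythroid genes. They are -0.05 to -0.03 for the lists of enucleation, mitophagy and the ubiquitin system (labelled ubiquitin enzymes). After median centring these last 3 are 0.22 to 0.25.

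Genes that mark late erythroid cells moved with the members. Of 18 measured genes of hemoglobin synthesis and the red cell membrane, 7 fell without replicate 1, 0 rose and 16 were below 0 (median log2 fold change -0.34, and -0.35 over 6 arrays, where 0 passed), against 2.07% of all genes that fell and 10475 of 18193 that were below 0. Slc4a1, the anion exchanger band 3, fell by 0.69 (SE 0.07, adjusted p = 0.000902), Tmcc2 by 0.56 and Urod, an enzyme of heme synthesis, by 0.54. The summed linear signal of the list reached 188200 in Pogz+/+ replicate 1, then 144200 and 150200 in the lower and higher of replicates 2 and 3, against 107800 to 115900 in Pogz-/-. Slc4a1 itself read a mean log2 signal of 14.72 in Pogz+/+ (14.34 without replicate 1) and 13.65 in Pogz-/-. Erythroid markers were thus present in both genotypes as the tissue label has it. After quantile normalization 3 of the 7 still fell (Slc4a1, Tmcc2 and Urod), and after median centring the same 3 fell while Sptb rose, with a median of -0.06. Of 15 genes of early hematopoietic progenitors, 3 rose (Kit, Myb and Ikzf1) and 0 fell, but the median was -0.16, and 0.05 over 6 arrays and 0.11 after median centring. Their summed signal was 6682, then 8803 and 8938, against 9223 to 9678 in the same order. By flow cytometry of FL at a later embryonic day, the study reported that primitive erythroid stages were more frequent in Pogz-/-. It also reported lower total numbers of mature erythroid cells there. The part that the share of late erythroid cells has in the members' falls was not tested.

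Markers of other FL cells were read too. Hepatocyte and hepatoblast genes had a median of -0.53, with 1 of 14 (Afp, by 0.66, adjusted p = 0.00879) falling, and summed to 51430, then 28440 and 35030, against 17390 to 28000 in the same order. Granulocyte genes had a median of 0.30, with 4 of 13 rising (Camp, Lcn2, Ctsg and Ltf), and summed to 86010, then 49620 and 55380, against 50260 to 57690. None passed among 14 macrophage genes (median -0.05, summed signal 7031, then 6121 and 6259, against 4336 to 6064), 11 of megakaryocytes and platelets (-0.08; 5740, then 5081 and 5516, against 4310 to 5386) and 12 of endothelium and stroma (-0.40; 1013, then 775.5 and 955.9, against 611.4 to 664.7). In the lists of hepatocytes, macrophages and endothelium every Pogz-/- sum was below every Pogz+/+ sum. Linear sums rest mostly on the brightest probe sets, and 15.8% of all single probe sets lay below in that way. No marker is at 0, because every deposited intensity is above 0, and the part of these cells in the members' values was not tested. Afp did not pass after quantile normalization, and 8 granulocyte genes rose after median centring.

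The genes with profiles most like the members over the 6 arrays were found among 8392 genes of at least moderate signal (mean log2 of 6 or more), by Pearson's r. For the mean of the 7 members, each scaled alike, they were Sh3yl1 (0.996), Zfand6 (0.994) and Synj1 (0.992). For Xpo7 they were Kcnn4, Cmc2 and Armc9 (0.999 or more for the first and second), for Tspan33 Fancc, Eif2ak1 and Tprgl, for Fbxo7 Fbxw5 (0.987), Ccng2 and Cibar1, for Hemgn Tmtc4 (0.990), Rbm38 and H3c7, and for Trim10 Cbfb (0.996), Glud1 and Ttc14. With 6 arrays and 1 that stands apart, a high r is common: 375 of the candidates were above 0.95 for Xpo7, 213 for Tspan33, 222 for Trim10 and 15 for Fbxo7. Among the members, Ube2o and Tspan33 were most alike (0.963), then Xpo7 and Ube2o (0.946), while Xpo7 and Trim10 ran opposite (-0.769), with replicate 1 the highest array in the former and the lowest in the latter.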

How the data were processed

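RNA of E14.5 FL cells from 3 Pogz+/+ and 3 Pogz-/- embryos (biological replicates per the labels) was labelled by a 3′ IVT kit and hybridized to Affymetrix arrays. The deposited intensity values came from Affymetrix Expression Console as run by the authors (version and summary method: not given in the sources used here). On their linear scale each array has a 2% trimmed mean of 150, while medians run from 29.7 to 54.3. Precision is limited by the number of arrays.

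No pseudocount was added before log2. After 64 controls were removed, 45037 probe sets entered limma 3.58.1 under R 4.3.3 (genotype only, two-sided, Benjamini-Hochberg over the whole table): a plain fit over 6 arrays, and a fit with trend and robust without Pogz+/+ replicate 1, chosen because that array was known to stand apart. Each gene was also fitted by its brightest probe set. "Fell" and "rose" mean an adjusted p under 0.05 without replicate 1. A shorter 3′ target lowers probe sets far from the 3′ end.

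The members, lists and tests were chosen with earlier results of these data known. Genes named are all members, up to 3 genes of each list with the largest moderated t without replicate 1, the 3 most alike in profile, and Pogz; others that passed (such as Ubac1, Klf1 and Ltf) and Bnip3 were added after their values were seen, as were the scalings and other fits of the lists. Of the probe sets, 34945 name 1 gene, 932 several and 9160 are unnamed here. Alternatives were quantile normalization, median centring, a dim filter, a pseudocount of 16, limma's prior, the methods' t-test, the replicate block, leaving out each array, and other probe sets per gene.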

Additional observations from a re-analysis of the deposited data

How the results depend on the processing

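Without Pogz+/+ replicate 1, the 7 member probe sets that fell became 3 after median centring, 0 without trend and robust and 0 by the methods' t-test, and 1 to 7 with 1 further array left out (1 without Pogz+/+ replicate 3, 2 without Pogz+/+ replicate 2 or Pogz-/- replicate 3). They were 7 after quantile normalization and with the pseudocount, and 8 with the dim filter. With Pogz-/- replicate 1, 2 or 3 also left out, 604, 222 and 84 of all probe sets fell. With all 5 arrays, 548 of 45037 probe sets fell, 384 after quantile normalization and 553 with the pseudocount. With the dim filter 887 of 22518 fell. On these 5 arrays the plain fit gave 4946 probe sets an unadjusted p under 0.05, and over 6 arrays 5280. The 4 genes that fell became 1 after median centring, 0 without trend and robust, 0 by the methods' t-test and 1 to 5 with 1 further array left out. Over 6 arrays no member passed under any of these alternatives, and limma's plain fit there called 0 of the list genes, where 25 were called without replicate 1 with trend and robust. Further fits of the lists were chosen after seeing the data. Over 6 arrays with trend and robust 1 list gene passed (Camp), and without replicate 1 the plain fit called 0, while 15 passed after quantile normalization and 31 after median centring. The cause was not tested. Replicate numbers did not pair the arrays (correlations of same-numbered deviations 0.00784, -0.00444 and -0.00503). The replicate block gave 9 member probe sets, 5 genes and, over 6 arrays, 0, and without replicate 1 it leaves Pogz-/- replicate 1 with no partner. Calls rose across the array as well: 907 of 45037 probe sets and 570 of 18193 genes were lower with the block. Without the block these were 548 and 376.

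Without Pogz+/+ replicate 1, no value that had passed the test changed sign. Over 6 arrays, Tspan33 1451609_at and Fbxo7, which had passed on the 5 arrays, did so after median centring. Over 6 arrays, log2 fold changes after median centring were 0.0559 (Xpo7 1415682_at), 0.22 (Riok3 1415747_s_at), 0.25 (Hemgn), 0.0468 (Tspan33 1451609_at) and 0.0783 (Fbxo7), and after quantile normalization 0.10 (Hemgn) and -0.0174 (Tspan33 1425157_x_at). With 1 array left out in turn they ran from -0.10 to 0.51 (Riok3 1422650_a_at), from -0.31 to 0.31 (Tspan33 1425157_x_at) and from -0.10 to 0.38 (Xpo7 1435814_at). Without Pogz+/+ replicate 1, median centring gave 0.0496 (Riok3 1415747_s_at), 0.0229 (Hemgn), 0.17 (Riok3 1422650_a_at), 0.22 (Xpo7 1435814_at) and 0.0508 (Xpo7 1446826_at). There the replicate block gave 0.20 for Xpo7 1435814_at, and leaving out 1 further array gave -0.28 to 0.20 for it and -0.10 to 0.19 for Trim10.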
